A study of Homo sapiens with 6 samples.

Results

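The genes described here make fatty acids and assemble them into triglyceride. They were chosen by symbol as a list of 34 genes of lipogenesis, elongation, desaturation, acyl-CoA activation and glycerolipid synthesis. Of these, 33 were among the 19846 genes of the count table and 32 passed the filter on low counts, beside 15314 genes tested in all. THRSP was absent from the count table, so its level could not be analysed. AGPAT4, with 3 to 14 counts per library, was too low to test.

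Fatty acid synthesis starts in the cytosol from citrate, which ATP citrate lyase splits to acetyl-CoA. Acetyl-CoA carboxylase turns this into malonyl-CoA, and fatty acid synthase builds palmitate, which elongases lengthen and desaturases supply with double bonds. Acyl-CoA synthetases activate fatty acids, and acyltransferases place the acyl chains on glycerol-3-phosphate, lipins remove the phosphate and DGAT enzymes add the last chain. In hepatocytes the triglyceride is stored in droplets or loaded onto apolipoprotein B, and the transcription factor encoded by SREBF1 is the best known activator of these genes.

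RNA was sequenced from HepG2, a human liver tumour cell line, in 2 groups of 3 samples each. The 2D group grew in 6-well plates in EMEM, seeded at 200000 cells per square centimetre, with medium renewed every 2 days. The 3D group grew in an interwoven hollow fiber bioreactor in equal parts EMEM and DMEM with 10% fetal bovine serum, penicillin-streptomycin and GlutaMAX. The medium was recirculated at 23.5 mL/min and fed at 2 mL/hour, with a gas flow of 200 mL/min. No gas flow is stated for the plates. Both groups were kept at 37 °C with 5% CO2 at passages 7 to 9. Culture form, medium, feeding and any difference in gas supply go together between the groups and cannot be told apart. No label states the serum on the plates or the length of either culture. Nor do the labels tell if the 3 samples per group come from separate cultures, so every p-value rests on a spread between samples that may be technical.

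Library totals ran from 9530820 counts (3D replicate 1) to 17943529 (2D replicate 3), and a count of 3 equalled 0.167 to 0.298 CPM (the count scaled to a fixed library size). All 8 hepatocyte markers checked were in the table, with a summed level of 17657 to 20347 CPM in 2D and 19605 to 35472 CPM in 3D. Of these, APOA1 (1.39, edgeR adjusted p = 0.000183) and TF (0.70, edgeR adjusted p = 0.0178) were higher in 3D by log2 fold change, and the TF call was lost when 2D replicate 1 or 2 or 3D replicate 2 or 3 was left out (edgeR adjusted p = 0.0516, 0.0817, 0.0504 and 0.0769). TTR (-0.43, edgeR adjusted p = 0.231) and APOA2 (-0.21, edgeR adjusted p = 0.471) did not pass, but were called lower once corrected for transcript length and GC content, at -0.71 and -0.72 (edgeR adjusted p = 0.042 and 0.0204). ALB (0.66, edgeR adjusted p = 0.0698) and SERPINA1 (0.50, edgeR adjusted p = 0.0791) did not pass either. Both were called higher with DESeq2 (adjusted p = 0.015 and 0.0294) and without 3D replicate 1 (edgeR adjusted p = 0.00576 and 0.00272). Neither passed once corrected for length and GC content (edgeR adjusted p = 0.0549 and 0.128), where ALB kept a log2 fold change of 0.66. With the replicate number as a block ALB passed, without and with that correction (edgeR adjusted p = 0.0397 and 0.0247). SERPINA1 passed in neither case (edgeR adjusted p = 0.135 and 0.185). Of 7 adipocyte markers, PLIN1 and CIDEC were in the table, both higher in 3D. Their summed level was 2.07 to 3.44 CPM in 2D and 9.63 to 10.8 CPM in 3D. PLIN1 held 4 to 31 counts per library, and its call (log2 fold change 1.54, edgeR adjusted p = 0.0213) was lost without 2D replicate 1, 3D replicate 1 or 3D replicate 2 (edgeR adjusted p = 0.0756, 0.0545 and 0.052). Of 7 fibroblast or stellate markers 3 were in the table (7.46 to 15.8 CPM in 2D, 9.28 to 21.2 CPM in 3D), with COL1A1 higher and PDGFRB lower in 3D. Of 4 endothelial markers 3 were in the table and none was called (2.00 to 4.79 CPM in 2D, 2.46 to 5.49 CPM in 3D). Of 5 leukocyte markers 3 were in the table (980 to 1476 CPM in 2D, 436 to 1015 CPM in 3D, nearly all of it LYZ), with CD68 higher in 3D and no row for PTPRC or CD3E. LYZ, at -0.82, did not pass by edgeR (adjusted p = 0.0555), but was called lower with DESeq2 (adjusted p = 0.00369), with limma-voom (adjusted p = 0.0282) and once corrected for length and GC content (edgeR adjusted p = 0.0236). The part of these markers in the results below was not tested. In bulk RNA, a change in the number of cells of a type and a change in RNA per cell cannot be told apart.

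Genes called higher and genes called lower both occurred among the elongases, the desaturases and the glycerol-phosphate acyltransferases. By edgeR's quasi-likelihood test at an adjusted p under 0.05, 11 of the 32 tested genes (34.4%) were higher in 3D, where 19.0% of all tested genes were. Another 8 (25.0%) were lower in 3D, where 17.6% of all tested genes were. The remaining 13 did not pass. The median log2 fold change, 3D over 2D, was 0.16 over the 32 genes and 0.02 over all tested genes, and it was 0.07 over the 32 genes without 3D replicate 2. The 3 values of one group all lay above those of the other for 21 of the 32 genes (65.6%), including all 19 that passed. Over all tested genes this share was 50.5%. Each value below rests on 3 libraries per group, and each fold change is 3D over 2D.

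**Figure D1:**
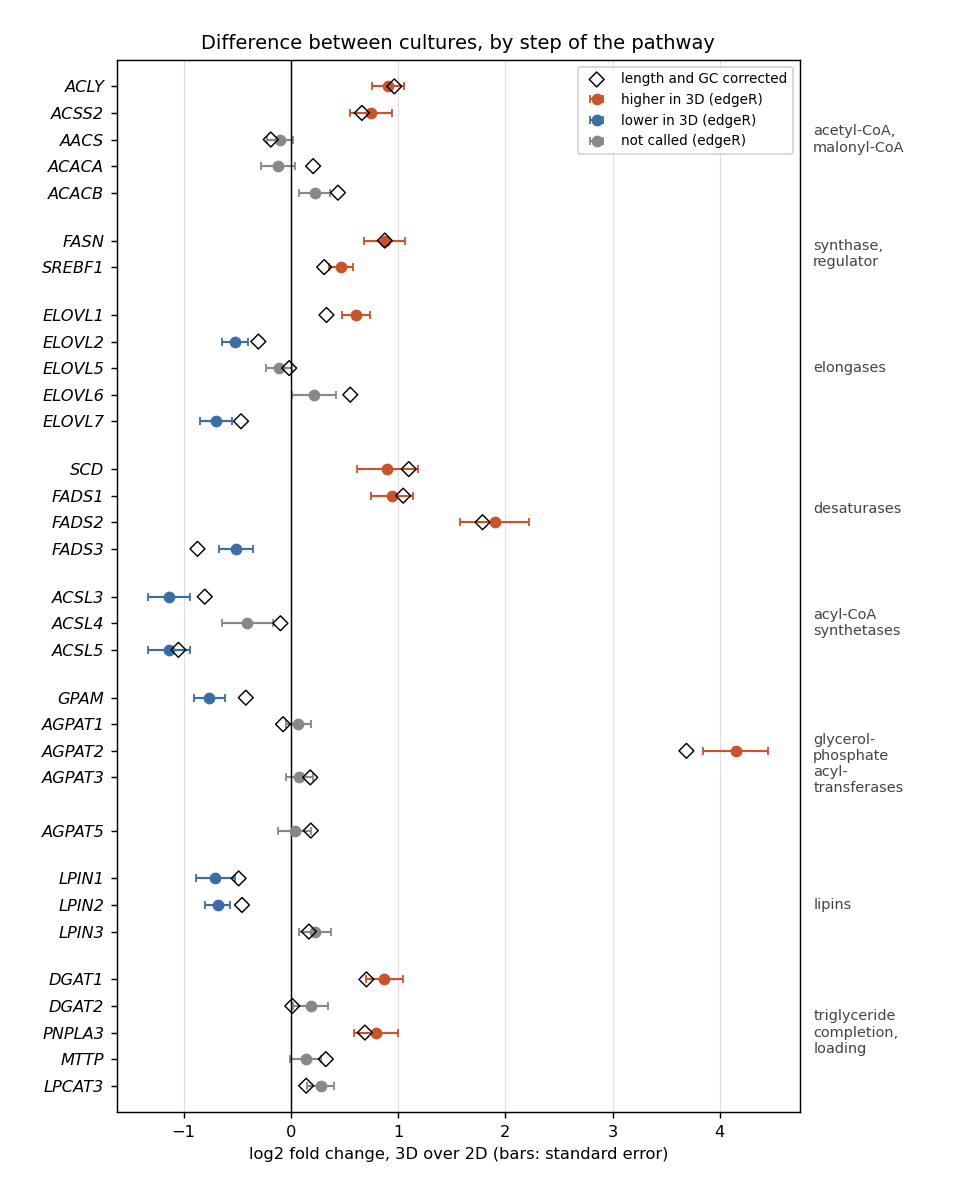
Log2 fold change of the 32 tested genes, 3D over 2D (x axis), with the standard error as bars, in the order of the pathway. Orange points were higher in 3D, blue points lower and grey points not called by edgeR. Open diamonds give the value after correction for transcript length and GC content, and all 19 called genes keep their side of 0.

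Fold changes across the transcriptome followed transcript length, so each gene was also read against this trend. Among 10 groups of tested genes ordered by length, the median log2 fold change went from 0.39 in the shortest to -0.41 in the longest, and the cause was not tested. The genes of the pathway that were higher in 3D had a median transcript length of 3711 bases and those that were lower had 4838 bases, against 3047 bases over all tested genes. Median GC content was 55.4% in the higher group, 42.9% in the lower group and 49.0% over all tested genes. With length and GC content corrected, all 19 calls remained in the same direction, and ACACB and ELOVL6 were also called higher. That made 13 higher and 8 lower, where 17.7% and 15.8% of all tested genes were called. The correction reduced the log2 fold change by more than 1.5 times in 6 of the 19, taking SREBF1 from 0.47 to 0.31, ELOVL1 from 0.61 to 0.33, ELOVL2 from -0.52 to -0.30, ELOVL7 from -0.70 to -0.46, GPAM from -0.76 to -0.42 and LPIN2 from -0.68 to -0.45.

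**Figure D2:**
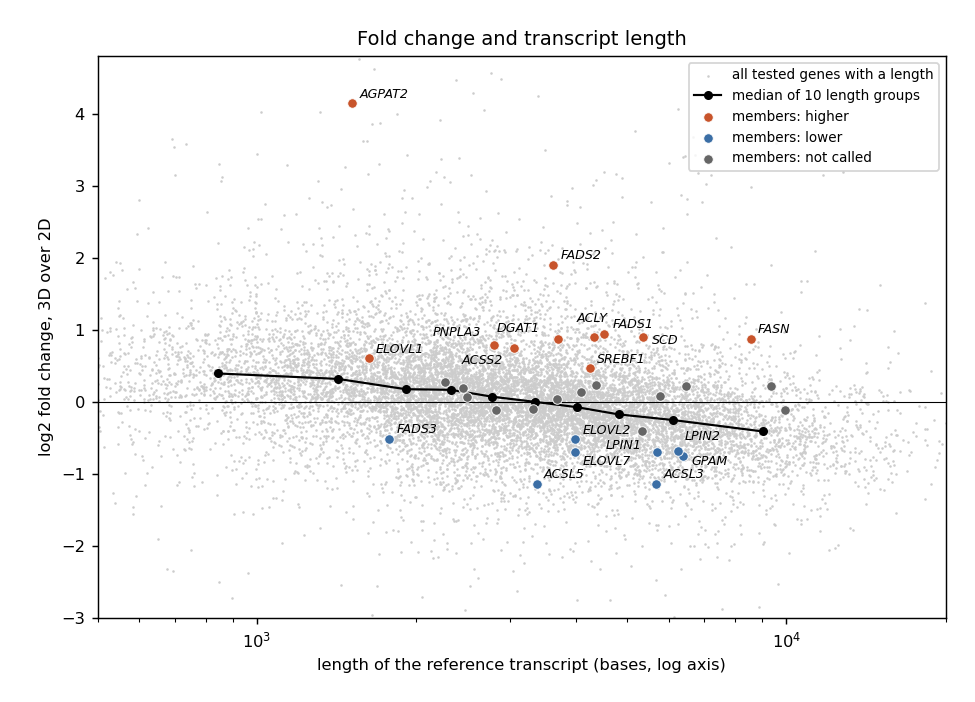
Log2 fold change, 3D over 2D (y axis), against the length of the reference transcript (x axis, log scale) for all tested genes with a length (grey dots; genes outside the plotted range are not drawn). The black line joins the medians of 10 length groups, from 0.39 to -0.41, and the coloured points are the genes of the pathway, with names for the 19 that passed the test.

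Upstream sequence was available for 28 of the 34 genes in RefSeq promoter windows on GRCh38.p14; FASN, PNPLA3, DGAT1, DGAT2, LPIN3 and AGPAT5 were not in that table. The 28 include THRSP and AGPAT4, which were not tested for expression. For each of the 28 genes only the first listed window was used. The set of all windows was not reduced in this way. The 250 bases before each start were searched on both strands for 4 motifs. The SREBP element TCACNCCAC was in 0 of the 28 windows, against 0.88% of 35116 windows. The CCAAT box was in 12 windows (42.9%, against 32.01% of all), 4 of 8 for genes higher in 3D and 2 of 8 for genes lower in 3D, and the E-box CACGTG in 1, that of ELOVL5, against 6.34%. The GC box GGGCGG, the core of Sp1 sites, was in 20 windows (71.4%, against 42.64% of all). It was in 7 of 8 windows of genes higher in 3D, 6 of 8 of genes lower in 3D and 7 of 10 of genes not called. Median GC content was 68.6% over the 28 windows and 58.0% over all windows. A match describes the sequence and is not a binding site.

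The windows of 2 genes that rose and 2 that fell are printed 5′ to 3′ on the strand of the gene, with every CCAAT or GC box match on either strand in capitals. AGPAT2 had the highest fold change of the pathway and ACLY is its first enzyme. FADS3 fell while FADS1 and FADS2 rose, and LPIN2 was one of the lipins that fell. None of the 4 windows touches an annotated exon; the AGPAT2 window lies outside the annotated gene and the other 3 lie in introns of longer transcripts of the same gene.
AGPAT2, chr9:136687458-136687707, minus strand: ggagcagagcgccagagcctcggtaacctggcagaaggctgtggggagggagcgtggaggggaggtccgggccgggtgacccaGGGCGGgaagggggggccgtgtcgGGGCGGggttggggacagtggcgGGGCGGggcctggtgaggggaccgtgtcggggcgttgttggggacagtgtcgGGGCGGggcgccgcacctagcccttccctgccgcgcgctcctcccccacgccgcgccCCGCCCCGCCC
ACLY, chr17:41919023-41919272, minus strand: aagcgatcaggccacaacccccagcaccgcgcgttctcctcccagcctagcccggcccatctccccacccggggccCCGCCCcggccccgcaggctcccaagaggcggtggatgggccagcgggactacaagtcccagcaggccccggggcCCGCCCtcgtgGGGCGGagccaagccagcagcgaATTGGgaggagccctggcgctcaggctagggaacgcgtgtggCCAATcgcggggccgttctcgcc
FADS3, chr11:61891546-61891795, minus strand: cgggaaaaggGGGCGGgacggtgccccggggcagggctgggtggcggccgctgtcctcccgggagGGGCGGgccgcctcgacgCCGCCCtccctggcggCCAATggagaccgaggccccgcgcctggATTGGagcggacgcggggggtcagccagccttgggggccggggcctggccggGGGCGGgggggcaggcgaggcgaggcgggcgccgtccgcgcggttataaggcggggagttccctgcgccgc
LPIN2, chr18:3011948-3012197, minus strand: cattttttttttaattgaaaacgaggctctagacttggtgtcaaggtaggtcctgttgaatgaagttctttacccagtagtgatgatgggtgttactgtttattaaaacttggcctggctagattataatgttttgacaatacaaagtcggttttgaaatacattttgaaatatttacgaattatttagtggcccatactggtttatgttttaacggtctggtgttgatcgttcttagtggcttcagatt
The AGPAT2 window held 6 GC boxes, 2 of them overlapping at its 3′ end, and the ACLY window held 2 CCAAT boxes and 3 GC boxes. That of FADS3, which fell, held 2 CCAAT boxes and 4 GC boxes. The LPIN2 window held none of the 4 motifs.

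The enzymes that make cytosolic acetyl-CoA from citrate and from acetate were both higher in 3D. ACLY, the citrate lyase, stood at 128, 134 and 164 CPM in 2D replicates 1 to 3 and at 247, 318 and 232 CPM in 3D replicates 1 to 3. Every 3D library was above every 2D library, a 1.87-fold rise (log2 fold change 0.91, SE 0.15, edgeR adjusted p = 0.00102). ACSS2, the acetate-activating enzyme, had 27.1, 23.2 and 32.7 CPM in 2D and 43.9, 59.6 and 35.4 CPM in 3D (log2 fold change 0.75, SE 0.20, edgeR adjusted p = 0.0127). The groups did not overlap, but 3D replicate 3 was close to 2D replicate 3. The ACSS2 call was lost without 2D replicate 1, at 0.72 (edgeR adjusted p = 0.0513), and without 2D replicate 2, at 0.62 (edgeR adjusted p = 0.0583).

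The carboxylases of the next step did not pass the test. ACACA, the cytosolic acetyl-CoA carboxylase that supplies malonyl-CoA for synthesis, had 84.0, 77.2 and 92.3 CPM in 2D and 82.3, 91.5 and 59.3 CPM in 3D (log2 fold change -0.12, SE 0.16, edgeR adjusted p = 0.578), and the groups overlapped. ACACB, the carboxylase at the mitochondrial surface, ranged from 15.8 to 16.7 CPM in 2D and from 17.4 to 20.9 CPM in 3D without overlap (edgeR adjusted p = 0.258). Its log2 fold change was 0.22 as measured and 0.44 with length and GC content corrected, where it passed (edgeR adjusted p = 0.0178). AACS, which activates acetoacetate, did not pass (46.2 to 48.1 CPM in 2D, 41.2 to 47.5 CPM in 3D, log2 fold change -0.10, edgeR adjusted p = 0.527).

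Neighbouring genes of the pathway were counted in 7 further lists, to be read against the 19.0% higher and 17.6% lower of all tested genes. Of 10 tested genes beside these that supply citrate, malonyl-CoA and NADPH, 3 were higher in 3D and 1 lower, with a median log2 fold change of 0.43. SLC25A1, the mitochondrial citrate exporter, had 66.8, 58.4 and 83.6 CPM in 2D and 177, 182 and 178 CPM in 3D (log2 fold change 1.36, SE 0.14, edgeR adjusted p = 7.72e-05). The groups did not overlap. MLYCD, which removes malonyl-CoA, was lower in 3D (log2 fold change -0.53, SE 0.15, edgeR adjusted p = 0.0192). Its call was lost without 2D replicate 2 or 2D replicate 3, at -0.53 (edgeR adjusted p = 0.0588) and -0.51 (edgeR adjusted p = 0.0649), and after the length and GC correction, at -0.22 (edgeR adjusted p = 0.369).

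FASN, the multi-domain synthase that builds palmitate, had 593, 483 and 648 CPM in 2D and 1266, 1141 and 759.5 CPM in 3D. All 3D libraries were higher, with 3D replicate 3 nearest to the plates, and the rise was 1.84-fold (log2 fold change 0.88, SE 0.19, edgeR adjusted p = 0.00491). SREBF1 had 64.3, 65.5 and 67.0 CPM in 2D and 96.9, 85.7 and 89.6 CPM in 3D. The 2D values were tightly grouped and all lower, a 1.38-fold difference (log2 fold change 0.47, SE 0.11, edgeR adjusted p = 0.00761). The use of strand in counting is not stated, and without it reads over the 556 exon bases that SREBF1 shares with RAI1 on the opposite strand cannot be assigned.

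Of 17 tested genes that process SREBP or control acetyl-CoA carboxylase, 0 were higher and 5 were lower in 3D by edgeR, with a median log2 fold change of -0.05. At an unadjusted p under 0.05, 1 of them was higher, 0 were with DESeq2 or limma-voom, and with length and GC content corrected 1 was higher and 7 were lower. SREBF2, the related factor that favours cholesterol genes, had 159, 121 and 142 CPM in 2D and 176, 158 and 129 CPM in 3D (edgeR adjusted p = 0.497). SCAP, the escort of SREBP, had a log2 fold change of -0.33 (edgeR adjusted p = 0.0801). It passed once corrected for length and GC content, at -0.46 (edgeR adjusted p = 0.00486), and without 3D replicate 1, at -0.47 (edgeR adjusted p = 0.0133). MLXIPL, the glucose-responsive factor ChREBP, had -0.21 (edgeR adjusted p = 0.36), and -0.43 when corrected (edgeR adjusted p = 0.0318). INSIG1, which retains SCAP, held at most 4 counts in a library and was too low to test. The annotation behind the counts is not stated, so this low count is not read as a low level of its RNA. MBTPS2, a protease that releases SREBP, fell from 45.3, 44.3 and 45.9 CPM in 2D to 23.5, 29.9 and 23.3 CPM in 3D (log2 fold change -0.82, SE 0.14, edgeR adjusted p = 0.00106). PRKAB2, a subunit of the kinase AMPK that inhibits the carboxylases, fell from 192, 178 and 189.6 CPM to 91.8, 124 and 91.0 CPM (log2 fold change -0.87, SE 0.14, edgeR adjusted p = 0.000804). The AMPK subunits did not move together. PRKAA1 was also lower, at -0.81 (edgeR adjusted p = 0.00129), and at -0.47 when corrected (edgeR adjusted p = 0.00392). PRKAA2, PRKAB1, PRKAG1 and PRKAG2 did not pass (edgeR adjusted p = 0.849, 0.101, 0.966 and 0.761). PRKAA2 was the gene called higher once corrected, at 0.50 (edgeR adjusted p = 0.00297).

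Of the 4 desaturases, 3 rose and 1 fell. FADS2, which opens polyunsaturated fatty acid synthesis, had 47.1, 30.7 and 79.0 CPM in 2D and 170.5, 239.6 and 176 CPM in 3D. The lowest 3D library was above the highest 2D library, although the 2D libraries themselves differed widely (log2 fold change 1.90, SE 0.32, edgeR adjusted p = 0.00297). FADS1, the desaturase that follows in the same route, had 102, 73.1 and 119 CPM in 2D and 165, 234 and 166 CPM in 3D. It rose 1.92-fold without overlap (log2 fold change 0.94, SE 0.19, edgeR adjusted p = 0.00409). FADS3, a relative that acts on the sphingoid base of ceramides, had 27.8, 27.5 and 22.5 CPM in 2D and 19.7, 15.2 and 19.7 CPM in 3D. It fell (log2 fold change -0.51, SE 0.16, edgeR adjusted p = 0.0263), with every 3D library below every 2D library. The FADS3 call was lost without 2D replicate 1, at -0.47 (edgeR adjusted p = 0.101), without 2D replicate 2, at -0.49 (edgeR adjusted p = 0.0845), and without 3D replicate 2, at -0.40 (edgeR adjusted p = 0.0745). With length and GC content corrected its log2 fold change was -0.87. The 3 genes are neighbours on chromosome 11 in GENCODE 29 on GRCh38 (FADS2 at chr11:61792980-61867354, FADS1 at chr11:61799625-61829318 and FADS3 at chr11:61873519-61892051). FADS1 and FADS2 share 490 exon bases on opposite strands, where reads cannot be assigned without strand.

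SCD, which makes oleate from stearate, was the most abundant gene of the pathway per kilobase in both cultures. It had 744, 596 and 1031 CPM in 2D and 1101, 2134 and 1191 CPM in 3D. The groups did not overlap, but 2D replicate 3 came close to 3D replicate 1, and 3D replicate 2 stood far above the rest (log2 fold change 0.90, SE 0.28, edgeR adjusted p = 0.0338). The SCD call was lost without 2D replicate 1, at 0.85 (edgeR adjusted p = 0.105), without 2D replicate 2, at 0.72 (edgeR adjusted p = 0.0997), and without 3D replicate 2, at 0.53 (edgeR adjusted p = 0.0872). It was also lost with DESeq2, at a log2 fold change of 0.89 (adjusted p = 0.0641).

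Of the 5 elongases, 1 rose, 2 fell and 2 did not pass. ELOVL1, which extends saturated acyl chains to very long lengths, had 24.2, 23.3 and 24.3 CPM in 2D and 34.2, 36.2 and 39.0 CPM in 3D and rose 1.52-fold (log2 fold change 0.61, SE 0.13, edgeR adjusted p = 0.00362). ELOVL2, which extends polyunsaturated chains, had 191, 173 and 188 CPM in 2D and 115, 141 and 129 CPM in 3D and fell 1.44-fold (log2 fold change -0.52, SE 0.12, edgeR adjusted p = 0.00641). Neither gene's groups overlapped. ELOVL7, another elongase of saturated chains, had 24.4, 25.6 and 27.3 CPM in 2D and 15.1, 18.2 and 14.3 CPM in 3D and fell 1.62-fold (log2 fold change -0.70, SE 0.15, edgeR adjusted p = 0.00407). ELOVL5, which extends polyunsaturated chains from FADS2, had 127, 119 and 122 CPM in 2D and 107, 131 and 103 CPM in 3D with overlap (edgeR adjusted p = 0.514). ELOVL6, which takes palmitate to stearate, did not pass (20.9 to 30.7 CPM in 2D, 23.8 to 39.7 CPM in 3D, log2 fold change 0.22, edgeR adjusted p = 0.433). It passed with length and GC content corrected, at 0.55 (edgeR adjusted p = 0.029).

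Of 8 tested partners of elongation and desaturation, 5 were higher in 3D and 1 lower, with a median log2 fold change of 0.58. CYB5A, the cytochrome b5 that passes electrons to desaturases, had 37.7, 40.0 and 44.4 CPM in 2D and 103, 115 and 114 CPM in 3D (log2 fold change 1.44, SE 0.12, edgeR adjusted p = 2.92e-05). CYB5R3, the reductase that feeds cytochrome b5, had 122, 116 and 134 CPM in 2D and 259, 198 and 207 CPM in 3D (log2 fold change 0.83, SE 0.14, edgeR adjusted p = 0.000822). Both were higher in every 3D library. HACD2, a dehydratase of the elongation cycle, was the gene that fell, at a log2 fold change of -0.45 (edgeR adjusted p = 0.0256). Its call was lost when 2D replicate 1, 2 or 3 or 3D replicate 3 was left out, with edgeR adjusted p = 0.062, 0.0609, 0.0796 and 0.0756, and after the length and GC correction (0.0817).

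Of the 3 long-chain acyl-CoA synthetases, 2 fell and 1 did not pass. ACSL3, an enzyme of the endoplasmic reticulum and of growing lipid droplets, had 587, 405 and 439 CPM in 2D and 177, 278 and 196 CPM in 3D (log2 fold change -1.14, SE 0.19, edgeR adjusted p = 0.00138). ACSL5, found on mitochondria and endoplasmic reticulum, had 128, 187 and 112 CPM in 2D and 52.9, 70.0 and 70.9 CPM in 3D and fell 2.20-fold (log2 fold change -1.14, SE 0.19, edgeR adjusted p = 0.00147). In both genes every 3D library was below every 2D library. ACSL4, which prefers arachidonate, had 506, 423 and 472 CPM in 2D and 249.9, 510.2 and 297 CPM in 3D. Its groups overlapped through 3D replicate 2 alone, which lay above all 2D libraries (edgeR adjusted p = 0.207). Without that library ACSL4 was lower in 3D, at -0.78 (edgeR adjusted p = 0.00436).

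Of 11 other activating enzymes and carriers of fatty acids, 4 were higher and 1 was lower in 3D, with a median log2 fold change of 0.33. CD36, a fatty acid uptake receptor, was low throughout, with 0.250, 0.788 and 0.999 CPM in 2D and 2.88, 3.55 and 2.67 CPM in 3D (log2 fold change 2.13, SE 0.43, edgeR adjusted p = 0.00292). FABP5, a cytosolic fatty acid binding protein, had 11.0, 9.03 and 11.2 CPM in 2D and 24.3, 35.0 and 35.7 CPM in 3D (log2 fold change 1.61, SE 0.18, edgeR adjusted p = 0.000128). The groups of both genes were apart. ACSL1, the main hepatic synthetase outside the list, was lower in 3D at a log2 fold change of -0.44 (edgeR adjusted p = 0.0237). Its call was lost without 2D replicate 2, at -0.33 (edgeR adjusted p = 0.115), without 3D replicate 2, at -0.43 (edgeR adjusted p = 0.0508), and after the length and GC correction, at -0.29 (edgeR adjusted p = 0.0868).

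AGPAT2 had the largest difference of the pathway. The gene (chr9:136673143-136687423, minus strand) encodes an acyltransferase of the endoplasmic reticulum that makes phosphatidic acid, and its loss causes generalized lipodystrophy. It had 1.38, 3.40 and 2.55 CPM in 2D (22, 56 and 46 counts) and 56.7, 33.0 and 41.4 CPM in 3D (572, 511 and 589 counts). It was low in every plate library and well detected in every bioreactor library, a 17.7-fold rise (log2 fold change 4.15, SE 0.30, edgeR adjusted p = 3.61e-05). With length and GC content corrected the log2 fold change was 3.69. The adipocyte markers in the table, PLIN1 and CIDEC, were higher in the same libraries, at summed levels under 11 CPM, and ADIPOQ, LEP and FABP4 were not listed. The CIDEC call remained under every alternative tried, and that of PLIN1 was lost without single libraries, as given above.

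No other tested AGPAT gene passed the test. AGPAT1, an enzyme of the same reaction, had 81.8, 90.6 and 81.2 CPM in 2D and 82.1, 87.0 and 96.7 CPM in 3D, with overlap (log2 fold change 0.07, SE 0.12, edgeR adjusted p = 0.679). It shares 1087 exon bases with PPT2-EGFL8 on the opposite strand. AGPAT3 ranged over 74.6 to 91.3 CPM in 2D and 79.2 to 96.5 CPM in 3D, and AGPAT5 over 46.2 to 53.2 CPM and 43.4 to 63.8 CPM. Their groups overlapped, with log2 fold changes of 0.08 (edgeR adjusted p = 0.654) and 0.04 (edgeR adjusted p = 0.87). GPAM, the mitochondrial acyltransferase that commits acyl-CoA to glycerolipid, had 243, 269.6 and 245 CPM in 2D and 136, 182 and 129.7 CPM in 3D. It fell 1.69-fold without overlap (log2 fold change -0.76, SE 0.14, edgeR adjusted p = 0.00217).

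Among 15 other tested genes of glycerolipid acylation and glycerol-3-phosphate supply, 4 were higher, 4 were lower and the median log2 fold change was 0.22. GPD1 and GK, both sources of glycerol-3-phosphate, moved in opposite directions. GPD1, which forms it from a glycolytic intermediate, had 11.3, 14.3 and 9.77 CPM in 2D and 46.2, 47.4 and 57.5 CPM in 3D (log2 fold change 2.10, SE 0.17, edgeR adjusted p = 2.41e-05). GK, which forms it from glycerol, had 207, 184 and 173 CPM in 2D and 43.7, 76.7 and 67.3 CPM in 3D and fell 3.00-fold (log2 fold change -1.58, SE 0.19, edgeR adjusted p = 0.000193). MOGAT2, which acylates monoacylglycerol, rose (log2 fold change 0.83, SE 0.18, edgeR adjusted p = 0.00429), and GPAT3, an acyltransferase of the endoplasmic reticulum, fell (log2 fold change -0.99, SE 0.23, edgeR adjusted p = 0.00614). The GPAT3 call was lost without 2D replicate 2 and 3D replicate 1 together, at -0.76 (edgeR adjusted p = 0.0519).

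Lipins, the phosphatidate phosphatases, fell in 2 of 3 cases. LPIN2, a main hepatic lipin, had 104, 91.3 and 102 CPM in 2D and 58.9, 65.3 and 60.7 CPM in 3D (log2 fold change -0.68, SE 0.12, edgeR adjusted p = 0.0011). LPIN1, which also acts as a transcriptional coactivator, had 28.6, 28.6 and 20.0 CPM in 2D and 14.6, 18.6 and 14.0 CPM in 3D (log2 fold change -0.70, SE 0.18, edgeR adjusted p = 0.0112). All 3D libraries were below all 2D libraries in both. The LPIN1 call was lost without 2D replicate 1, at -0.63 (edgeR adjusted p = 0.0544). LPIN3 had 29.4, 27.3 and 29.9 CPM in 2D and 37.7, 27.7 and 36.0 CPM in 3D, with overlap (log2 fold change 0.23, edgeR adjusted p = 0.249).

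At the last acylation, DGAT1 rose and DGAT2 did not pass. DGAT1, which esterifies mostly imported fatty acids, had 37.4, 59.3 and 57.5 CPM in 2D and 95.4, 83.0 and 104 CPM in 3D (log2 fold change 0.87, SE 0.17, edgeR adjusted p = 0.00292). DGAT2, which favours newly made fatty acids, had 48.6, 57.6 and 61.8 CPM in 2D and 48.9, 65.2 and 76.6 CPM in 3D (log2 fold change 0.18, SE 0.17, edgeR adjusted p = 0.408). Only the DGAT1 groups were apart. PNPLA3, a lipid droplet protein whose common variant is linked to fatty liver, had 7.20, 7.27 and 9.44 CPM in 2D and 13.7, 16.9 and 10.8 CPM in 3D and rose 1.73-fold (log2 fold change 0.79, SE 0.21, edgeR adjusted p = 0.0116). Its groups were apart. The call was lost without 2D replicate 1, at 0.72 (edgeR adjusted p = 0.0569), and without 2D replicate 2, at 0.71 (edgeR adjusted p = 0.0525). It was also lost without 3D replicate 2, at 0.61 (edgeR adjusted p = 0.0507). PNPLA3 shares 148 exon bases with SAMM50 on the same strand, where strand cannot assign reads.

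Loading and remodelling genes of the list did not pass the test. MTTP, the transfer protein that lipidates apolipoprotein B, had 116, 106 and 125 CPM in 2D and 100.3, 141 and 140.4 CPM in 3D (edgeR adjusted p = 0.489). LPCAT3, which puts polyunsaturated chains into phosphatidylcholine, had 31.1, 34.5 and 37.2 CPM in 2D and 40.3, 44.0 and 40.6 CPM in 3D (log2 fold change 0.28, SE 0.13, edgeR adjusted p = 0.105). The MTTP groups overlapped and the LPCAT3 groups did not. LPCAT3 shares 3100 of its 4725 exon bases with EMG1 on the opposite strand, so its count is uncertain. Of 7 other genes of lipoprotein loading, 0 were higher and 2 were lower by edgeR, with a median log2 fold change of -0.22. At an unadjusted p under 0.05, 1 was higher, and 0 were with DESeq2 or limma-voom. APOB, the structural protein of the particle, fell from 16555, 18504 and 18208 CPM to 5135, 9040.4 and 5716 CPM (log2 fold change -1.42, SE 0.22, edgeR adjusted p = 0.000614). MIA3, which helps large cargo leave the endoplasmic reticulum, fell from 83.4, 98.3 and 81.6 CPM to 49.3, 57.5 and 46.9 CPM (log2 fold change -0.78, SE 0.13, edgeR adjusted p = 0.00106).

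Of 14 genes of the branch to phosphatidylcholine and phosphatidylethanolamine, 3 were higher and 3 lower in 3D, with a median log2 fold change of -0.04. PEMT, which methylates phosphatidylethanolamine in hepatocytes, rose from 8.39, 10.2 and 11.0 CPM to 21.9, 16.9 and 21.1 CPM (log2 fold change 1.01, SE 0.17, edgeR adjusted p = 0.00124). CEPT1, which uses diacylglycerol for both phospholipids, fell from 40.7, 44.7 and 44.6 CPM to 19.3, 28.8 and 25.5 CPM (log2 fold change -0.81, SE 0.15, edgeR adjusted p = 0.00218). The 2 ethanolamine kinases differed in sign, with ETNK2 at 0.57 (edgeR adjusted p = 0.0074) and ETNK1 at -0.52 (edgeR adjusted p = 0.0139). The ETNK2 call was lost without 2D replicate 1, at 0.49 (edgeR adjusted p = 0.0519). The ETNK1 call was lost without 3D replicate 3, at -0.45 (edgeR adjusted p = 0.054), and after the length and GC correction, at -0.07 (edgeR adjusted p = 0.561). Over all 82 tested genes of these neighbouring lists, 19 were higher (23.2%) and 17 lower (20.7%), against 19.0% and 17.6% of all tested genes, with a median of 0.13. Among the neighbours whose calls remained, the length and GC correction took CYB5R3 from 0.83 to 0.51, MOGAT2 from 0.83 to 0.52, ETNK2 from 0.57 to 0.34, PEMT from 1.01 to 0.54, APOB from -1.42 to -0.92 and MIA3 from -0.78 to -0.37 on the log2 scale.

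**Figure D3:**
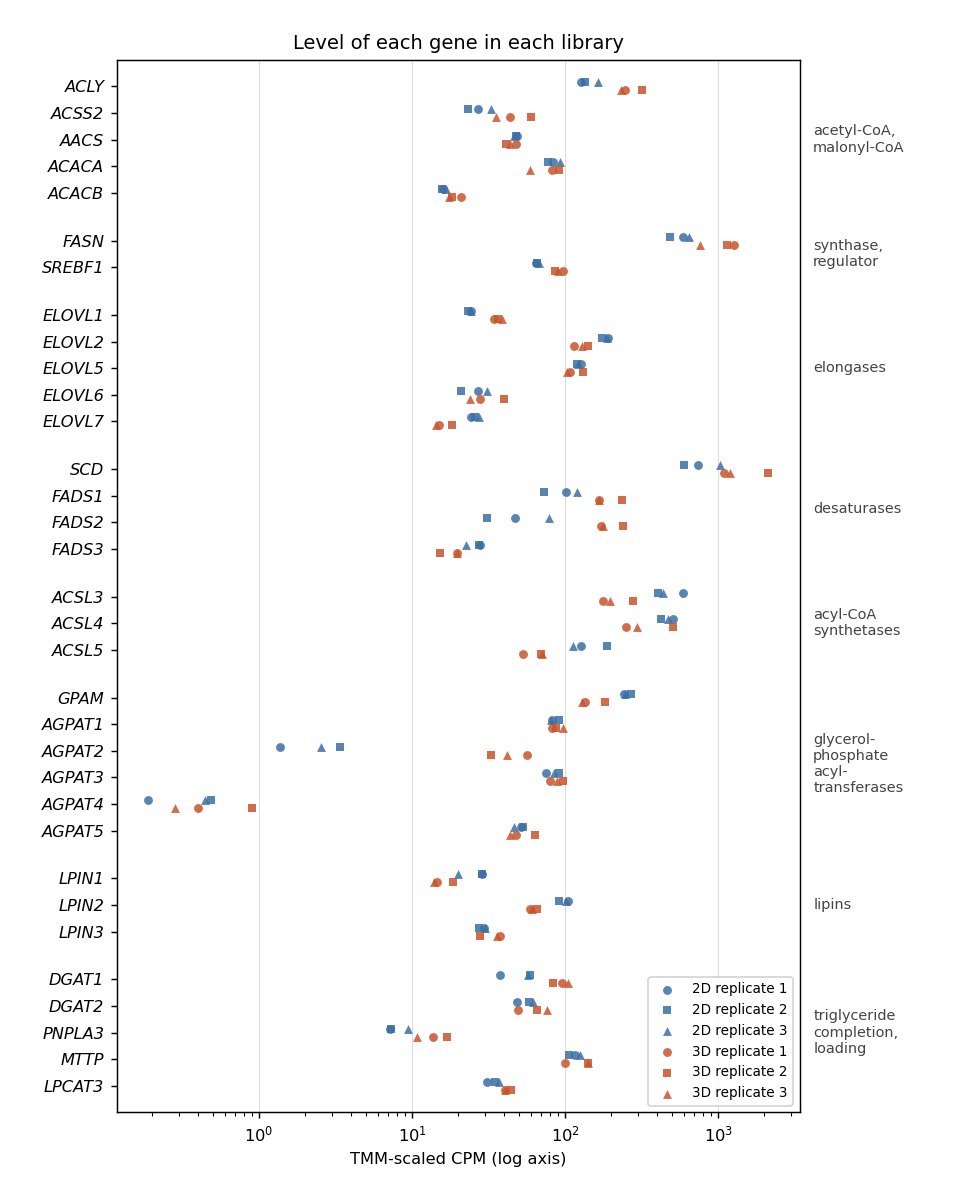
Level of each of the 33 genes in each library (x axis, TMM-scaled CPM, log scale), in the order of the pathway, with 2D libraries in blue and 3D libraries in orange. AGPAT2 shows the widest gap, while AGPAT4 stays under 1 CPM in every library.

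Ratios between isozymes within a library do not depend on how libraries are scaled, and 17 pairs were compared. With 3 libraries per group the smallest two-sided exact permutation p is 0.1, so no pair could pass. The groups were apart for 8 of the 17 pairs, each with exact permutation p = 0.1 and a Benjamini-Hochberg value of 0.213. By level, single genes were apart in 50.5% of all tested genes, and no share is given for pairs of other genes. The count of pairs is therefore not read as a result about isozymes. AGPAT2 against AGPAT1 differed by 4.14 on the log2 scale, with mean log2 ratios of -5.19 ± 0.596 in 2D and -1.05 ± 0.457 in 3D (SD, n = 3). FADS2 against FADS1 differed by 1.04, from -0.99 ± 0.350 to 0.06 ± 0.0285 (SD, n = 3), so the 2 transcripts reached about equal counts in 3D. FADS3 against FADS1 differed by -1.47 and DGAT2 against DGAT1 by -0.73. Against ELOVL5, ELOVL1 differed by 0.72, ELOVL2 by -0.41 and ELOVL7 by -0.59, and ACSL3 against ACSL4 differed by -0.67. Pairs whose groups overlapped included LPIN2 against LPIN1 (0.02, exact permutation p = 1), AGPAT3 against AGPAT1 (0.01, exact permutation p = 0.9) and ACSS2 against ACLY (-0.18, exact permutation p = 0.3). The mean log2 ratio of LPIN2 to LPIN1 was 1.96 ± 0.343 in 2D and 1.98 ± 0.155 in 3D (SD, n = 3).

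Per kilobase of transcript, the shares of several isozymes within their families did not overlap between cultures. These differences were not tested. AGPAT2 made up 2.50% ± 0.904 of the AGPAT sum in 2D and 30.7% ± 7.38 in 3D, while AGPAT1 went from 53.2% ± 0.695 to 37.9% ± 3.86 (SD, n = 3). The AGPAT sum itself was 60.7 to 68.9 CPM per kilobase in 2D and 90.9 to 97.2 in 3D. FADS2 went from 27.4% ± 7.60 to 50.8% ± 1.34 of its family and FADS3 from 30.0% ± 8.88 to 10.0% ± 2.78 (SD, n = 3). ELOVL1 went from 12.8% ± 0.248 to 21.8% ± 2.25 and ELOVL2 from 40.1% ± 0.495 to 31.0% ± 1.16 (SD, n = 3). DGAT1 went from 37.4% ± 3.44 to 49.8% ± 5.74 of the DGAT pair, and LPIN3 from 24.5% ± 1.03 to 37.9% ± 5.52 of the lipins, although its own level did not pass the test. ACSL4 went from 41.1% ± 3.07 to 52.7% ± 4.49 of the 3 synthetases, whose sum was 199 to 236 CPM per kilobase in 2D and 93.7 to 165 in 3D. The shares of ACACA and ACACB overlapped between cultures. With counts not divided by length, a choice made after seeing the data, the AGPAT2 share differed by 15.0 percentage points in place of 28.2, AGPAT1 by -5.72 in place of -15.3, FADS1 by -9.02 in place of -3.34, FADS3 by -10.9 in place of -20.0 and ELOVL1 by 5.05 in place of 8.96.

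**Figure D4:**
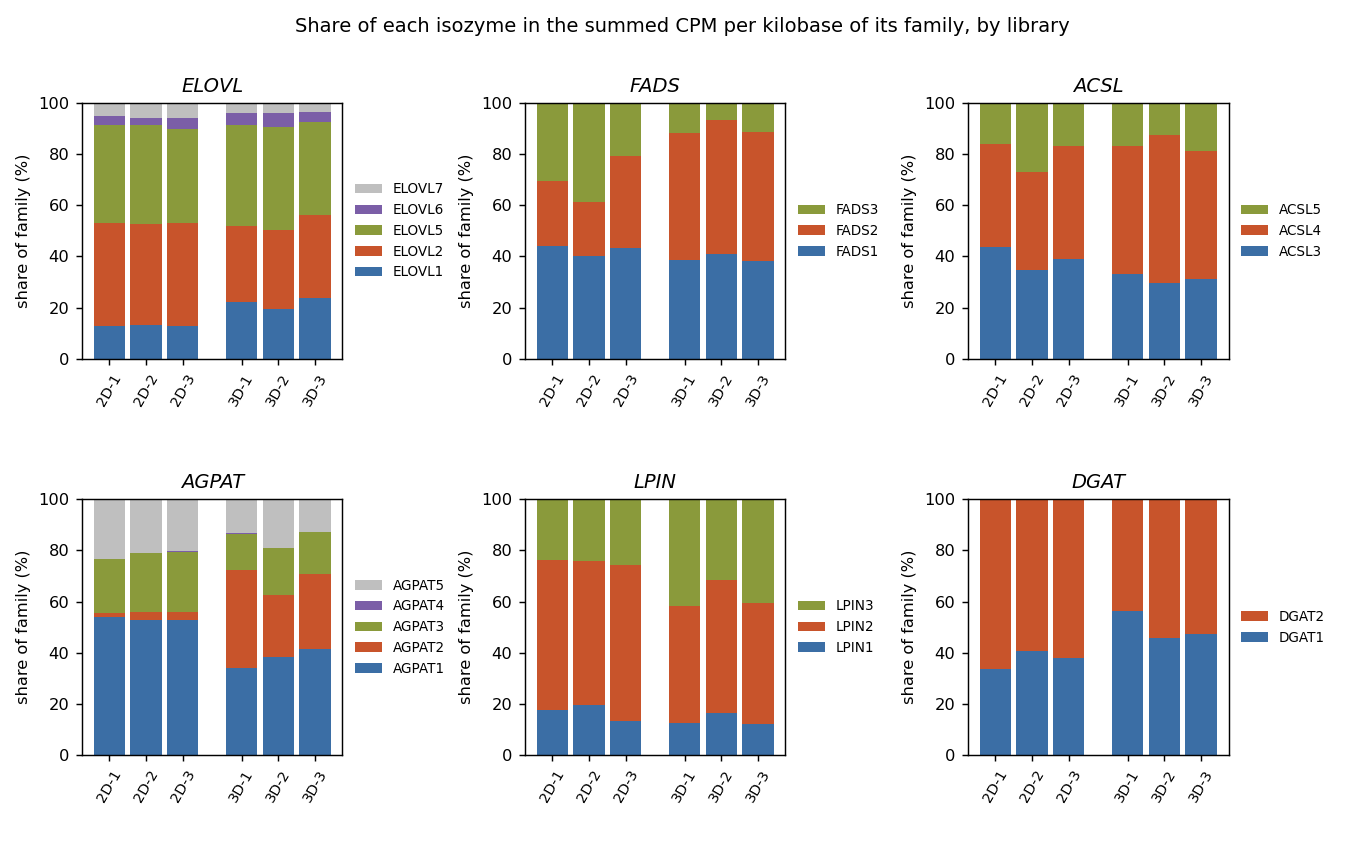
Share of each isozyme in the summed CPM per kilobase of its family (y axis, percent) in each of the 3 2D and 3 3D libraries (x axis). AGPAT2 goes from 2.50% to 30.7% and FADS2 from 27.4% to 50.8% on average, and FADS3 goes from 30.0% to 10.0%.

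In order of level per kilobase, SCD came first in both cultures, at 147 ± 41.2 CPM per kilobase in 2D and 275 ± 107 in 3D (SD, n = 3). In 2D it was followed by ACSL4 (87.6 ± 7.89), ACSL3 (84.0 ± 17.1) and FASN (67.1 ± 9.78), and in 3D by FASN (123 ± 30.8), ACSL4 (66.1 ± 26.0) and ACLY (61.3 ± 10.6). SCD stood clear of the next gene in both cultures. ACSL4 overlapped ACSL3 and ACSL3 overlapped FASN in 2D, and FASN, ACSL4 and ACLY overlapped their neighbours in 3D. AGPAT2 ranked 32 of 33 in 2D, above AGPAT4 alone, and 12 of 33 in 3D. FADS2 went from rank 20 to rank 5 and ACSL3 from rank 3 to rank 8.

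The genes that rose also varied between libraries of one culture. 2D replicate 3 was the highest plate library for 9 of the 11 genes that rose, and 3D replicate 2 was the highest bioreactor library for 6 of the 11 and for 6 of the 8 that fell. Summed over the pathway, the 2D libraries held 4351, 3872 and 4635 CPM and the 3D libraries 4851, 6527 and 4546 CPM, so the sums overlapped. SCD took 17.1%, 15.4% and 22.2% of this sum in 2D and 22.7%, 32.7% and 26.2% in 3D. FASN took 13.6%, 12.5% and 14.0% in 2D and 26.1%, 17.5% and 16.7% in 3D. Neither share overlapped between cultures. The median coefficient of variation between replicates was 9.55% in 2D and 16.7% in 3D for the tested genes of the pathway, close to the 10.4% and 16.5% over all tested genes.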

How the data were processed

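RNA of 6 HepG2 samples, 3 from plates and 3 from the bioreactor, was sequenced with Illumina libraries, per the labels' protocols. STAR 2.4.1d, Partek and build hg38 are named in the submitters' processing notes, and no source used here gives the annotation release, the counting settings or whether strand was used. The authors deposited estimated counts per gene symbol, of which 61.7% were whole (tolerance 0), and the lowest gene total over the libraries was 10. They were rounded to whole numbers, which changed a library total by at most 25 counts.

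Genes were filtered (filterByExpr), scaled by TMM and tested with edgeR 4.0.16 (robust quasi-likelihood fit, culture as the one term) in R 4.3.3, with Benjamini-Hochberg adjustment over all 15314 tested genes and a threshold of 0.05. DESeq2 1.42.0, limma-voom (limma 3.58.1), other scalings and filters, a correction for length and GC content by loess (span 0.5), the replicate number as a block and each library left out were alternatives. Length and GC content came from GENCODE 29 and were found for 88.2% of tested genes. Scripts were tested on simulated data. Library totals of 9530820 to 17943529 counts set the precision, and replicates differed by more than sampling noise.

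The members and the neighbouring lists were chosen with earlier results of these data known. Values in every library are given for each member past the test and for a member of each family that was not. From the neighbouring lists, up to 2 called genes per direction with the largest fold change at 1 CPM or more were named. SREBF2, SCAP, MLXIPL and INSIG1 were named whatever their result, as were the AMPK subunits beside PRKAB2. One gene that this rule would name is not reported here. Exact permutation tests over samples were used for isozyme ratios, with a pseudocount of 0.5.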

Additional observations from a re-analysis of the deposited data

How the results depend on the processing

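All 19 called genes kept their direction under the 17 alternatives tried. Of these, 11 also kept an adjusted p under 0.05 throughout, and 8 lost it under at least 1 alternative, as given here and beside SCD, ACSS2, FADS3, LPIN1 and PNPLA3. With the replicate block and the length and GC correction together ACSS2 lost it (edgeR adjusted p = 0.0992), as did the other three, SREBF1, ELOVL1 and ELOVL2, under this alternative alone, at edgeR adjusted p = 0.0585, 0.0658 and 0.0535. Leaving out 1 library at a time, or 2D replicate 2 with 3D replicate 1, gave 8 to 11 genes higher and 6 to 8 lower, a median log2 fold change of 0.0675 to 0.214 and, in the neighbouring lists, 15 to 21 higher and 12 to 19 lower. With both 2D replicate 2 and 3D replicate 1 left out, which earlier work on these data had singled out, 9 were higher and 6 lower, and the calls of ACSS2, FADS3, LPIN1 and PNPLA3 were lost (edgeR adjusted p = 0.0662, 0.059, 0.074 and 0.0609).

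Samples with the same replicate number did not deviate together from their group means (correlations of 0.053, -0.00924 and -0.0783). The labels do not say if the numbers pair the samples, and so few samples cannot exclude it. With the replicate block, 10 genes were higher and 8 lower, with a median of 0.15, and SCD lost its call (edgeR adjusted p = 0.0528). No sample's deviation from its group mean correlated above 0.103 with that of any sample of the other group.

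Log2 fold changes of genes that did not pass changed sign in places, and the cause was not tested. With length and GC content corrected, ACACA was at 0.21 and AGPAT1 at -0.072. With the replicate block added to that correction, ACACA was at 0.20, AGPAT1 at -0.075 and DGAT2 at -0.0072. Leaving out libraries in this way gave ranges of -0.261 to 0.0369 for ACACA, -0.00365 to 0.159 for AGPAT1, -0.00234 to 0.206 for AGPAT3, -0.15 to 0.145 for AGPAT5 and -0.0305 to 0.365 for ELOVL6. Differences in log2 ratio ranged in the same way over -0.0677 to 0.0711 for AGPAT3 against AGPAT1, -0.0804 to 0.779 for AGPAT4, -0.222 to 0.132 for AGPAT5 and -0.125 to 0.208 for LPIN2 against LPIN1. AGPAT5 against AGPAT1 stood at 0.26 with length and GC content corrected. Depth limits the genes at under 100 counts in a library, which in the pathway are AGPAT2 in 2D and AGPAT4. Among the named neighbours and markers they are INSIG1, PRKAG2, CD36 and PLIN1 in every library, GPAT3 and PDGFRB in 3D, and CIDEC, COL1A1 and CD68 in at least 1 library.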
